A study of Homo sapiens with 6 samples.

Results

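The genes described here are 10 cell-surface proteins best known from the nervous system: the contactin CNTN1, the LAR-type receptor phosphatases PTPRD, PTPRF and PTPRS, the cell adhesion molecules CADM1, CADM3 and CADM4, and the calsyntenins CLSTN1, CLSTN2 and CLSTN3. They are 10 of the 33117 rows of the expression table. They were picked with this table's values in view, because some members were near 0 after CAVIN1 knockdown while close relatives were not. Their differences between the groups are therefore given as a description, with no test. RNA was sequenced from WPMY-1, a human cell line immortalised from normal prostate stroma, in 6 libraries. In 3 of them the cells carried the empty lentiviral vector pLKO1 (shCtrl), and in the other 3 a lentiviral short hairpin RNA against CAVIN1 (shCAVIN1), which helps to form and coat caveolae, small pits of the plasma membrane. Both groups were transduced and selected with puromycin. The labels speak of stable knockdown clones, name a single hairpin, and do not tell how the 3 libraries of a group were obtained, so p-values measure only the spread between these libraries, which may be technical.

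Contactins are immunoglobulin-type adhesion proteins tied to the membrane by a lipid anchor, and CNTN1 joins the contactin-associated protein CNTNAP1 where myelin meets the axon. LAR-type phosphatases carry immunoglobulin and fibronectin repeats outside the cell and a pair of phosphatase domains inside it, and bind heparan sulphate proteoglycans and synaptic partner proteins across the cleft and liprins in the cytoplasm. CADM proteins are immunoglobulin-type molecules that bind each other and nectin-like relatives between neighbouring cells, and CADM1 is also known as a tumour suppressor of epithelia. Calsyntenins are membrane proteins with cadherin repeats that bind kinesin light chains and are cut by the proteases that also cut the amyloid precursor protein.

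Values are FPKM as the authors deposited them, that is, fragment numbers corrected for transcript length and for the size of the library. FPKM divides by length, so levels of different genes may be set side by side. The absolute depth is unknown. The library sums of FPKM lay between 758837 and 1043843, and between 19649 and 20435 genes were above 0 in a library. The abundant RNA RN7SK was listed at 0 in 1 library, so a 0 may stand for an estimate that failed, and such values are given as listed at 0. The hairpin target CAVIN1 (listed as PTRF) was at 42.0% of its control level, with no overlap between the groups. Of 11 markers of stromal fibroblasts and smooth muscle, 11 were above the low-value filter described below, with summed FPKM of 1347 to 1474 in shCtrl and 899 to 917 in shCAVIN1. Of these 11, 7 fell by limma, among them TAGLN (675 ± 33.3 to 346 ± 12.7 FPKM) and COL1A2 (85.5 ± 11.9 to 9.78 ± 0.731 FPKM), ACTA2 rose (4.94 ± 0.289 to 9.89 ± 0.287 FPKM), and VIM, COL1A1 and PDGFRB did not pass. The sum of 8 prostate epithelium markers was 399.6 to 433.5 in shCtrl and 244 to 259 in shCAVIN1, most of it KRT18, with KLK3 listed at 0 throughout. The sum of 5 endothelium markers was 0.439 to 0.882 and 1.15 to 1.26, and that of 6 leukocyte markers 7.42 to 8.36 and 9.61 to 9.96, with CD3E listed at 0 throughout. Of 13 neuron markers, 10 were under 0.5 FPKM in every library, DCX and ELAVL4 were listed at 0 throughout, and the sum (32.0 to 35.7 in shCtrl, 31.5 to 34.0 in shCAVIN1) was almost all TUBB3. Of 9 markers of glia and Schwann cells, 7 were under 0.5 FPKM in every library. Their sum was 5.55 to 6.12 in shCtrl and 9.19 to 9.69 in shCAVIN1. The part of these marker shifts in the differences below was not tested. In a bulk sample, fewer cells that express a gene and less RNA per cell cannot be told apart.

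Promoter windows, from 250 bases before to 50 bases after an annotated start, matched 9 of the 10 members in RefSeq (GRCh38.p14), with 13 windows in all. The windows below belong to 3 of the members that were near 0 in shCAVIN1 and to 3 relatives that were not. They are shown because the families' members parted in level, and CpG dinucleotides, the sites of DNA methylation in mammals, are in capitals.
CNTN1 (chr12:40827934-40828233, plus strand): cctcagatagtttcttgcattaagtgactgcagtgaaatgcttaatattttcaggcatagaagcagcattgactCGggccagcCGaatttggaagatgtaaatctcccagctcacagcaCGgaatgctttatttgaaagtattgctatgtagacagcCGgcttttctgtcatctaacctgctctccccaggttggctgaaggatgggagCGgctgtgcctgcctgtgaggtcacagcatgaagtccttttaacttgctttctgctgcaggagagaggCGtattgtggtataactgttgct
PTPRD (chr9:10612953-10613252, minus strand): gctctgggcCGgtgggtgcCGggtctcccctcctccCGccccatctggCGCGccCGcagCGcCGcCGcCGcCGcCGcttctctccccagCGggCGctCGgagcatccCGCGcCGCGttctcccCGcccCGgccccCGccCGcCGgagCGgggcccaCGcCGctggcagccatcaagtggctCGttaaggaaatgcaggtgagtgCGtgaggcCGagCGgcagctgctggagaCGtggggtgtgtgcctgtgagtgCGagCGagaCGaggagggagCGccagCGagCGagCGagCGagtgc
PTPRF (chr1:43530633-43530932, plus strand): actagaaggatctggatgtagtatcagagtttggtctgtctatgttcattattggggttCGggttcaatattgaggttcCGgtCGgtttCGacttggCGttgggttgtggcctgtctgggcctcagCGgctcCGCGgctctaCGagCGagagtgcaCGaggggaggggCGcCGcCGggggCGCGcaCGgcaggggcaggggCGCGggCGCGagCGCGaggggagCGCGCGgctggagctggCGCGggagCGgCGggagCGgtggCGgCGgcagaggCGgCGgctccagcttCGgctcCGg
PTPRS (chr19:5340763-5341062, minus strand): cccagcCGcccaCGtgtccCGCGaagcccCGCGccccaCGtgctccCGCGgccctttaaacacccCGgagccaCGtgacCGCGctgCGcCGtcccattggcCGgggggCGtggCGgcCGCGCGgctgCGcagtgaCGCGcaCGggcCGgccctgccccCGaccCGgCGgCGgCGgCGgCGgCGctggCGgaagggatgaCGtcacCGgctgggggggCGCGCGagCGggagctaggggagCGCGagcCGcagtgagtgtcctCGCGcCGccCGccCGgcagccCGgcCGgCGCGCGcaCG
CLSTN2 (chr3:139934935-139935234, plus strand): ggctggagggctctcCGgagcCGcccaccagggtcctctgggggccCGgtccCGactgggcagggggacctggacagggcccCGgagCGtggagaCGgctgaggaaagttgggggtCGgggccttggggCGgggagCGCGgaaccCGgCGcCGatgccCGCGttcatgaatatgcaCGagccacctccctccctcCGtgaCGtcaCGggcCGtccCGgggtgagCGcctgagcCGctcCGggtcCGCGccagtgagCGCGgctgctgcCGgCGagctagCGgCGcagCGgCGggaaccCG
CADM4 (chr19:43639801-43640100, minus strand): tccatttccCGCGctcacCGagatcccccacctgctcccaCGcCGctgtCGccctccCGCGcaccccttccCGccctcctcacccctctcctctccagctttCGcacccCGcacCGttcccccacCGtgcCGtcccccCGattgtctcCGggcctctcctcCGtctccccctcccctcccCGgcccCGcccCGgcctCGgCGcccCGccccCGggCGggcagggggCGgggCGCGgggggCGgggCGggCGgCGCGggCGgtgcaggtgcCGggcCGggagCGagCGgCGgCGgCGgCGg

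Windows rich in CpG occurred on both sides. The first PTPRD window held 40 CpG and the CLSTN2 window 36, against 37 in PTPRF, 55 in PTPRS and 42 in CADM4. Over 35116 windows of this length the median was 14 CpG (quartiles 4 and 28), a set that also holds genes these cells do not express. In all, 19 protein-coding genes went from at least 2 FPKM in every shCtrl library to under 0.1 FPKM in every shCAVIN1 library. Of these, 78.9% had a window, and with each gene's window richest in CpG their median was 21 (quartiles 7 and 35). Of the 10080 other genes at that shCtrl level, 77.8% had a window, with a median of 29 (quartiles 22 and 37). The 19 include members picked on this contrast, and the difference was not tested. The CNTN1 windows were poor in CpG, with 6 in the printed window and 2 in the other (chr12:40908107-40908406). Both lie inside the CNTN1 gene body, and no window covered the start of the gene given below (40692442, plus strand). The PTPRF window (from 43530633) and the CLSTN3 window (from 7130121) likewise begin inside the gene, after the starts given below (43525187 and 7129698). The first PTPRD window (10612953-10613252, minus strand) lies wholly before the start given below (10612723). The CpG content at these starts of CNTN1, PTPRF, CLSTN3 and PTPRD was therefore not measured. PTPRD has further starts inside its gene body, with 4 CpG at chr9:8779342-8779641 and 7 at chr9:8733897-8734196, and gene-level values do not say which start was in use. The CLSTN3 window held 14 CpG, that of CADM3 23, and those of CLSTN1 18 and 52. Searched on both strands, with overlapping matches of different motifs each counted, GGGCGG (the core of the SP1 site) was in 7 of the 13 windows and in 45.0% of all windows. CCAAT was in 6 of 13 and 34.6% of all. CAGCACC, a part of the site of the neural repressor REST, was in 1 (CLSTN3) and in 7.75% of all. TATAAA and the AP-1 letters TGANTCA were in 0 of 13, and in 11.5% and 7.71% of all.

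In control cells PTPRF was the most abundant member, at a mean of 37.4 FPKM. CLSTN1 (24.0 FPKM) and CADM4 (23.3 FPKM) came next with overlapping libraries, and PTPRS followed at 15.4 FPKM, below both in every library. CNTN1, PTPRD, CLSTN3, CLSTN2 and CADM1 formed a low tier with means from 5.06 down to 2.77 FPKM, in which each overlapped the next in order. CADM3 was close to absent, at 0.0348 FPKM or less in every shCtrl library. In shCAVIN1 cells the order at the top was PTPRF, CADM4, CLSTN1, PTPRS and CLSTN3, and of these neighbours only PTPRF and CADM4 overlapped. All 4 other genes of the low tier lay under 0.1 FPKM in every shCAVIN1 library.

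**Figure D1:**
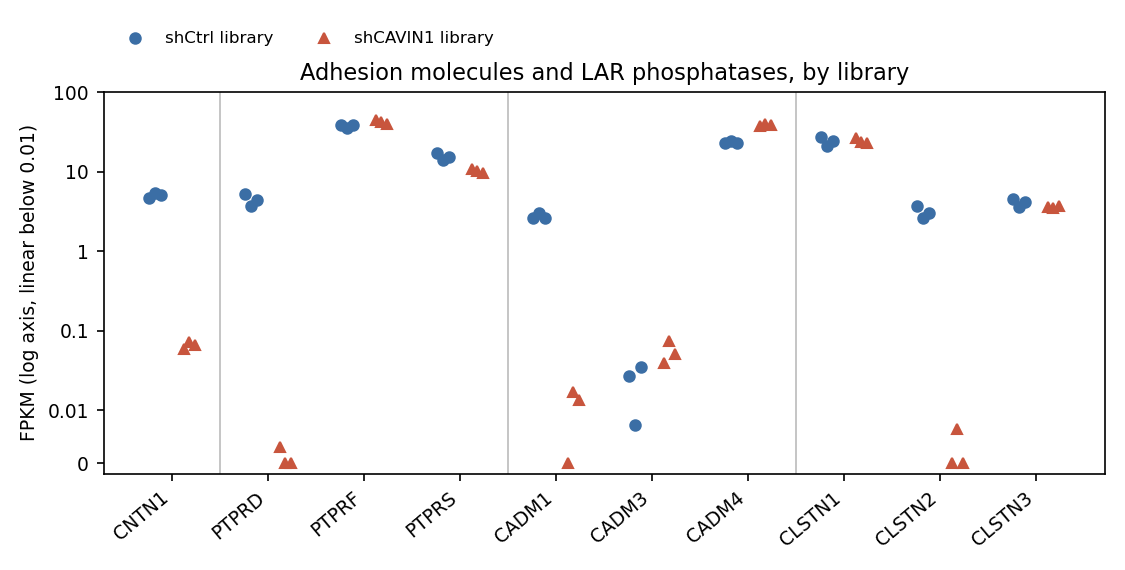
FPKM of the 10 genes in each library on a log axis that is linear below 0.01, with circles for the 3 shCtrl libraries and triangles for the 3 shCAVIN1 libraries. CNTN1, PTPRD, CADM1 and CLSTN2 sit between 2.63 and 5.43 FPKM in shCtrl and under 0.1 FPKM in shCAVIN1, while PTPRF, CADM4 and CLSTN1 stay above 20 FPKM in all 6 libraries.

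CNTN1 lies on chromosome 12 at 40692442 to 41072418 on the plus strand (GENCODE 29, GRCh38). The shCtrl libraries, here and below in the order of their replicate numbers, had 4.65, 5.43 and 5.08 FPKM, and the shCAVIN1 libraries 0.0585, 0.0726 and 0.0660 FPKM. It was low in all 3 knockdown libraries but listed above 0 in each. The lowest control value was 64.1 times the highest knockdown value. The mean went from 5.06 ± 0.390 to 0.0657 ± 0.00705 FPKM (SD, n = 3), which is 1.30% of control.

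No other contactin stood in its place. CNTN2, an axonal contactin, was at 0.0752 ± 0.0218 FPKM in shCtrl and 0.0344 ± 0.0144 FPKM in shCAVIN1 (SD, n = 3). CNTN4 was under 0.02 FPKM in all 6 libraries, and CNTN3 was listed at 0 in 5 of 6. CNTN6 was at 0.0765, 0.0215 and 0.0447 FPKM in shCtrl and listed at 0 in all 3 shCAVIN1 libraries. CNTN5 lay on the other side, at 0.0230 FPKM or less in shCtrl and between 0.105 and 0.132 FPKM in shCAVIN1. These 5 relatives were all below the low-value filter and were not tested. CNTNAP1, the partner of CNTN1 at the axon, was at 2.67 ± 0.454 FPKM in shCtrl and 3.01 ± 0.258 FPKM in shCAVIN1, with overlapping libraries (log2 0.15, SE 0.118, limma adjusted p = 0.310).

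PTPRD, on chromosome 9 at 8314246 to 10612723 (minus strand), was at 5.15, 3.65 and 4.38 FPKM in shCtrl. In shCAVIN1 it was at 0.00302 FPKM in replicate 1 and listed at 0 in replicates 2 and 3. The lowest control library was 1209 times the one knockdown library above 0. The other LAR-type phosphatases stayed expressed. PTPRF (LAR itself, chromosome 1, 43525187 to 43623666, plus strand) was at 39.0, 35.1 and 38.2 FPKM in shCtrl and 44.0, 41.6 and 39.2 FPKM in shCAVIN1, so its lowest knockdown library was 1.005 times its highest control library, and it overlapped under quantile normalization. PTPRS (chromosome 19, 5158495 to 5340803, minus strand) was at 16.9, 13.9 and 15.5 FPKM in shCtrl and 10.7, 10.1 and 9.54 FPKM in shCAVIN1, or 65.7% of control without overlap.

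The make-up of the LAR family differed between the groups. PTPRD made up 8.44%, 6.92% and 7.55% of the family's summed FPKM in shCtrl and 0.00551%, 0% and 0% in shCAVIN1. PTPRF went from 65.4% ± 1.39 to 80.4% ± 0.0620 of the sum (SD, n = 3), and PTPRS from 26.9% ± 0.643 to 19.6% ± 0.0593. The sum itself was 57.2 ± 4.23 FPKM in shCtrl and 51.7 ± 3.00 FPKM in shCAVIN1, with overlapping libraries.

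CADM1 (chromosome 11, 115169218 to 115504957, minus strand) was at 2.64, 3.04 and 2.63 FPKM in shCtrl. In shCAVIN1 it was listed at 0 in replicate 1 and at 0.0169 and 0.0133 FPKM in replicates 2 and 3. The lowest control value was 155 times the highest knockdown value. CADM4 (chromosome 19, 43622368 to 43639839, minus strand), a relative found in epithelia and Schwann cells, went the other way. It was at 23.1, 24.0 and 22.8 FPKM in shCtrl and 37.7, 39.4 and 38.1 FPKM in shCAVIN1, 1.65 times the control mean, and its libraries were the tightest of the 10 genes, with an SD of 2.61% of the mean in shCtrl and 2.30% in shCAVIN1.

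CADM3 (chromosome 1, 159171609 to 159203313, plus strand) stayed near 0 in both groups, at 0.0270, 0.00719 and 0.0348 FPKM in shCtrl and 0.0388, 0.0743 and 0.0501 FPKM in shCAVIN1, and was below the low-value filter. CADM2, the remaining family member, was likewise low, at 0.0238, 0.0220 and 0.0352 FPKM in shCtrl and 0.119, 0.153 and 0.185 FPKM in shCAVIN1. CADM4 thus made up 89.3% ± 0.508 of the summed FPKM of CADM1, CADM3 and CADM4 in shCtrl and 99.8% ± 0.0641 in shCAVIN1 (SD, n = 3). That sum was 26.1 ± 0.826 FPKM in shCtrl and 38.5 ± 0.907 FPKM in shCAVIN1, without overlap.

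CLSTN2 (chromosome 3, 139935185 to 140577397, plus strand) was at 3.64, 2.64 and 2.97 FPKM in shCtrl. In shCAVIN1 it was at 0.00641 FPKM in replicate 2 and listed at 0 in replicates 1 and 3, so that the lowest control library was 412 times the only knockdown library above 0. The antisense row CLSTN2-AS1, on the opposite strand inside the gene, was at 0.0939, 0.0449 and 0.0645 FPKM in shCtrl and also listed at 0 in all 3 shCAVIN1 libraries. The strand setting of the quantification is not given in the sources used here, so reads of the gene and its antisense row may not be separate.

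The other calsyntenins overlapped between the groups. CLSTN1 (chromosome 1, 9729026 to 9824526, minus strand) was at 27.2, 20.8 and 23.9 FPKM in shCtrl and 26.6, 23.4 and 22.9 FPKM in shCAVIN1. CLSTN3 (chromosome 12, 7129698 to 7158945, plus strand) was at 4.56, 3.61 and 4.10 FPKM in shCtrl and 3.62, 3.49 and 3.69 FPKM in shCAVIN1. CLSTN3 overlapped through shCtrl replicate 2, and without that library its groups parted, with shCAVIN1 lower. CLSTN2 made up 9.88% ± 0.370 of the family's summed FPKM in shCtrl (SD, n = 3) and 0%, 0.0238% and 0% in the shCAVIN1 libraries, while CLSTN3 stayed at 13.2% ± 0.255 and 12.9% ± 0.946.

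**Figure D2:**
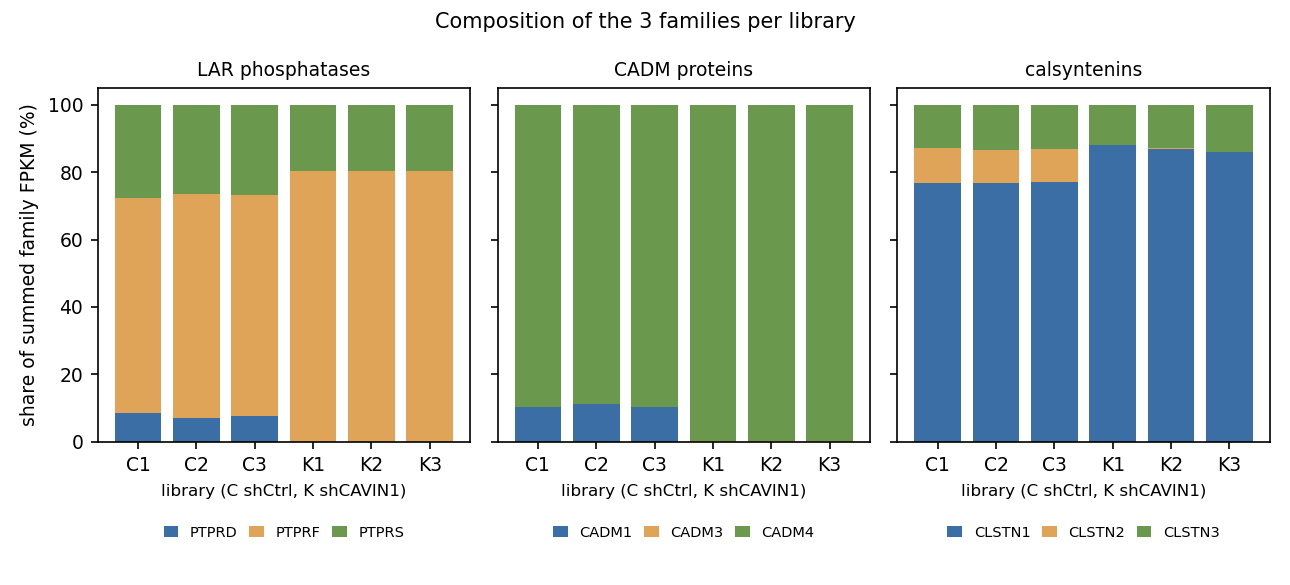
Share of each gene in the summed FPKM of its family, in percent, for the 3 shCtrl libraries (C1 to C3) and the 3 shCAVIN1 libraries (K1 to K3). PTPRD, CADM1 and CLSTN2 each make up 6.92% to 11.3% of their family in every shCtrl library and less than 0.05% in every shCAVIN1 library.

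In each of the 3 families it was a minor member that was near 0 in shCAVIN1, and the most abundant member stayed expressed. The families were picked with such a contrast in view, so this is only a description. In all, 5 members were lower without overlap (CNTN1, PTPRD, PTPRS, CADM1 and CLSTN2), where 33.3% of all tested genes were. A further 3 were higher without overlap (PTPRF, CADM3 and CADM4), where 31.3% of all tested genes were, and CLSTN1 and CLSTN3 overlapped. Genes with a mean of at least 0.5 FPKM over the 6 libraries were tested, and 9 members passed this filter. The groups did not overlap for 7 of these 9 members, and for 64.6% of all 13941 tested genes. Since the members were picked on this contrast, nothing is read from these counts. Tests of other genes used limma on log2(FPKM + 0.5) with an adjusted p of 0.05, which 55.5% of all tested genes passed.

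A drop from clear expression to near 0 was rare in the table. Of 10099 protein-coding genes with at least 2 FPKM in every shCtrl library, 19 (0.188%) were under 0.1 FPKM in every shCAVIN1 library, and CNTN1, PTPRD, CADM1 and CLSTN2 were 4 of them. Their place among the 19 follows from how the members were picked, so nothing is read from it. The limits of 2 and 0.1 FPKM were not planned. By the same limits with the groups exchanged, the number was 2 of 10067 (0.0199%). CNTN1 was the member closest to the limit, with its highest shCAVIN1 value at 0.0726 FPKM, and the lowest shCAVIN1 value of any member outside it that was expressed in controls was 3.49 FPKM, for CLSTN3. The members ranked 6 (CNTN1), 9 (PTPRD), 12 (CLSTN2) and 13 (CADM1) of the 19 by control level.

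Libraries of a group differed in a way that many members shared. Of the 10 members, 7 were lowest among controls in shCtrl replicate 2, against 4037 of the 13941 tested genes. CNTN1, CADM1 and CADM4 were instead highest there. The part of this library in the values was not tested, and the same 5 members were lower without overlap when it was left out.

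Of the genes around the members, 140 were listed from general knowledge as paralogs, ligands and cytoplasmic partners, with earlier results of these data known. All 140 matched a row, 9 of them through an older symbol, and 77 passed the filter. Of the 77, 28 rose and 26 fell in shCAVIN1 by limma (adjusted p under 0.05 over all tested genes), where 27.3% of all tested genes were higher and 28.2% lower. Their median log2 fold change was 0.06, against -0.02 over all tested genes. After each library was rescaled to the same total (TPM), 22 rose and 15 fell. Under that scaling 64.4% of all changed genes were higher, against 49.2% in the values as deposited, and the median of all tested genes moved to 0.09.

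Other receptor phosphatases went both ways, with 4 of 8 tested members higher and 3 lower. PTPRG, a receptor phosphatase that binds contactins, fell from 13.7 ± 2.35 to 3.73 ± 0.174 FPKM (log2 -1.74, SE 0.121, limma adjusted p = 0.000109). It was at 16.1, 11.4 and 13.8 FPKM in shCtrl and at 3.93, 3.61 and 3.66 FPKM in shCAVIN1. PTPRK, which binds its own kind between cells, fell to 11.4 ± 0.343 FPKM (log2 -0.64, limma adjusted p = 0.000286), and its relative PTPRM rose from 8.01 ± 0.336 to 10.9 ± 0.232 FPKM. PTPRQ, known from the hair cells of the inner ear, rose from 0.871 ± 0.0368 to 5.27 ± 0.201 FPKM (log2 2.07, SE 0.0596, limma adjusted p = 6.95e-06). PTPRZ1, the glial receptor of CNTN1, was under 0.13 FPKM in every library.

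Few of the synaptic ligands of LAR-type phosphatases were expressed, with 6 of 18 past the filter. The leucine-rich repeat protein SLITRK5, a ligand of PTPRD, rose from 1.07 ± 0.183 to 4.31 ± 0.148 FPKM (log2 1.62, SE 0.0986, limma adjusted p = 6.95e-05), in the cells where PTPRD itself was near 0. LRFN1, a synaptic adhesion protein of the same broad class, fell to 0.445 ± 0.0244 FPKM (log2 -0.66, limma adjusted p = 0.00370). LRFN4 was at 24.6 ± 1.40 and 21.6 ± 1.38 FPKM, a fall that passed narrowly (log2 -0.19, SE 0.0646, limma adjusted p = 0.0479) and that 8 of 15 alternatives lost. The remaining 3 tested ligands did not pass.

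On the cytoplasmic side of the LAR family, 1 of 11 tested partners rose and 5 fell. The liprins, scaffolds that bind the phosphatase tails, included PPFIBP2, which was at 1.84, 2.29 and 1.86 FPKM in shCtrl and fell to 0.438 ± 0.0180 FPKM (log2 -1.41, SE 0.0963, limma adjusted p = 0.000103). PPFIBP1 fell from 9.35 ± 0.656 to 6.66 ± 0.0599 FPKM and PPFIA1 from 19.9 ± 0.136 to 16.6 ± 0.413 FPKM, and both calls were lost after rescaling to TPM (log2 -0.35 and -0.14, limma adjusted p = 0.0909 and 0.554). The scaffold kinase CASK, which binds liprins and CADM tails alike, rose from 4.03 ± 0.261 to 5.53 ± 0.464 FPKM.

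Partners of the CADM proteins held the largest log2 fold change of the 77 tested genes. TIAM1, an exchange factor for the small GTPase Rac that is known to bind the tail of CADM1, fell from 4.92 ± 0.341 to 0.0618 ± 0.00732 FPKM (log2 -3.27, SE 0.0777, limma adjusted p = 4.50e-06). Its libraries were at 5.22, 4.55 and 4.99 FPKM in shCtrl and at 0.0642, 0.0676 and 0.0536 FPKM in shCAVIN1, close to those of CNTN1. Among the 58 listed genes with a control mean of at least 2 FPKM, TIAM1 was the only gene near 0 in shCAVIN1. EPB41L3, a band 4.1 protein that also binds CADM1, was at 0.119 ± 0.00972 FPKM in shCtrl and listed at 0 in all 3 shCAVIN1 libraries, and was below the filter.

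The other CADM partners moved less, with 4 of 11 higher and 4 lower in all. EPB41L1 fell from 4.24 ± 0.326 to 2.78 ± 0.0638 FPKM and the scaffold PALS2 (listed as MPP6) from 15.5 ± 0.877 to 9.29 ± 0.290 FPKM, while MPP1 rose from 7.52 ± 0.550 to 10.9 ± 0.780 FPKM. MPP3, another scaffold of CADM1, was at 2.59 ± 0.305 and 2.64 ± 0.455 FPKM. The nectins, immunoglobulin-type relatives that bind the actin linker afadin, were split. NECTIN1 fell from 3.15 ± 0.218 to 1.55 ± 0.111 FPKM, while NECTIN2 rose from 24.2 ± 0.389 to 32.6 ± 1.91 FPKM and NECTIN3 rose from 20.3 ± 0.679 FPKM by 0.29 on the log2 scale. Afadin (AFDN) fell from 16.4 ± 0.807 to 11.5 ± 0.244 FPKM. The calls of NECTIN3 and AFDN were lost after rescaling to TPM (log2 0.41 and -0.38, limma adjusted p = 0.0760 and 0.0896).

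Calsyntenin partners and the proteases that cut them had 7 of 17 tested genes higher and 4 lower. APLP2, a relative of the amyloid precursor protein, rose from 86.7 ± 1.48 to 151 ± 5.12 FPKM, and APH1A, a subunit of the gamma-secretase, from 88.7 ± 5.46 to 138.5 ± 1.29 FPKM. The neuronal kinesin KIF5A fell from 1.42 ± 0.0963 to 0.152 ± 0.0525 FPKM (log2 -1.56, SE 0.103, limma adjusted p = 8.90e-05), and the kinesin light chain KLC4 from 8.36 ± 0.296 to 5.77 ± 0.237 FPKM. The KLC4 call was lost after rescaling to TPM (log2 -0.39, limma adjusted p = 0.0706).

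Other adhesion molecules, not all of them best known from neurons, also parted. In the L1 and NCAM list, 7 of 12 tested genes rose and 4 fell. ALCAM, a homophilic adhesion molecule, rose from 65.8 ± 3.77 to 178 ± 4.37 FPKM (log2 1.43, SE 0.0540, limma adjusted p = 1.53e-05), and NEGR1, a lipid-anchored molecule like the contactins, from 1.91 ± 0.0995 to 5.59 ± 0.0957 FPKM. MCAM, an adhesion molecule of vessel walls, fell from 24.4 ± 1.07 to 4.81 ± 0.0955 FPKM (log2 -2.23, SE 0.0470, limma adjusted p = 3.51e-06), and IGSF3 from 4.81 ± 0.378 to 1.79 ± 0.0666 FPKM. Among leucine-rich repeat and teneurin genes 3 of 5 tested rose and 2 fell. The latrophilin ADGRL2, a receptor of teneurins, rose from 1.13 ± 0.0292 to 7.30 ± 0.356 FPKM (log2 2.26, SE 0.0574, limma adjusted p = 4.74e-06), and ADGRL1 from 1.72 ± 0.0918 to 3.63 ± 0.367 FPKM.

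The other named genes of that list were less firm. FLRT2 was at 2.99 ± 0.893 and 1.74 ± 0.117 FPKM (log2 -0.61, SE 0.191, limma adjusted p = 0.0354), a fall lost without any of 5 single libraries (shCtrl replicates 1 and 3 and each shCAVIN1 replicate, limma adjusted p from 0.0681 to 0.1001) and without the filter on low values (0.0612). NTNG1 was at 1.98 ± 0.319 and 2.68 ± 0.0534 FPKM (log2 0.37, SE 0.102, limma adjusted p = 0.0228), a rise lost without shCtrl replicate 3 or any shCAVIN1 replicate (0.0563 to 0.0684). Of the neurexins, which bind calsyntenins at synapses, and their partners the neuroligins, 2 of 7 passed the filter and neither passed the test. NLGN2 was at 4.85 ± 1.23 and 5.65 ± 0.713 FPKM, and NRXN3 at 0.876 ± 0.195 and 1.22 ± 0.0657 FPKM (limma adjusted p = 0.0572).

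**Figure D3:**
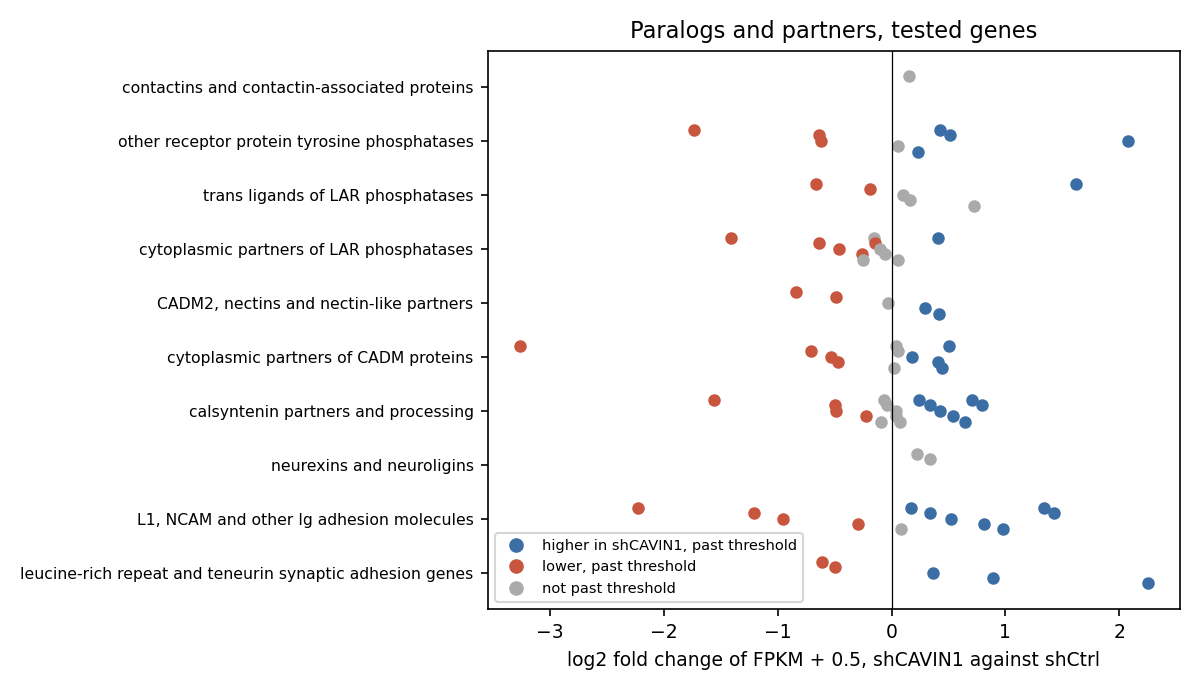
Log2 fold change of FPKM + 0.5, shCAVIN1 against shCtrl, for each tested gene of the 10 lists, colored by whether it passed an adjusted p of 0.05 in limma. Rises and falls occur in most lists, and the gene at -3.27 among the CADM partners is TIAM1.

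The genes beside the members on the chromosome were compared as well, taking the 5 nearest tested protein-coding genes on either side. Beside the 4 members near 0 in shCAVIN1, 28 of 40 such genes fell and 1 rose by limma, with a median log2 fold change of -0.52. Beside the 6 relatives, 37 of 60 rose and 9 fell, with a median of 0.29. Over all tested genes 28.2% fell and 27.3% rose. After rescaling to TPM the counts were 16 and 0, and 20 and 1. None of the 100 neighbours was near 0 in shCAVIN1. That tells little, since only 0.188% of protein-coding genes with at least 2 FPKM in every shCtrl library were.

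Around CADM1, 9 of 10 neighbours fell and 0 rose (median log2 -0.66), and around CLSTN2 7 fell and 1 rose (-0.57). Around CNTN1 7 fell (-0.38) and around PTPRD 5 (-0.29), with 0 higher at either. Around CLSTN1 10 of 10 rose (0.57), and around PTPRF 9 rose and 1 fell (0.43). PTPRS was itself lower, while 7 of its 10 neighbours rose and 0 fell (0.27). CADM4 was itself higher, while 2 of its neighbours rose and 3 fell (-0.01). Around CADM3 7 rose and 1 fell (0.32), and around CLSTN3 2 rose and 4 fell (-0.11).

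The same 10-gene window around each of 11726 protein-coding genes had a median log2 fold change of -0.44 at the lower 5% of windows and 0.41 at the upper 5%. At least 5 genes fell and at most 1 rose in 18.5% of these windows, and in 21.9% of the 4123 windows that spanned at least 2.5 Mb. At least 7 rose and at most 1 fell in 9.89% of all windows and 6.06% of the wide ones. Neither limit was planned, and they match the counts beside PTPRD (5 fell, 0 rose) and CADM3 (7 rose, 1 fell). The window medians of CADM1 and CLSTN2 were above only 0.478% and 1.53% of all windows, those of CNTN1 and PTPRD above 7.29% and 13.0%, and those of PTPRF and CLSTN1 above 95.3% and 97.9%. Those of CADM3 and PTPRS were above 90.1% and 86.5%, and those of CADM4 and CLSTN3 lay in the middle, above 51.1% and 33.7%. The windows of CNTN1 and PTPRD spanned 8.57 and 9.30 Mb, those of CADM1 and CLSTN2 3.40 and 2.67 Mb. The window of CADM3 spanned 3.28 Mb, that of CLSTN3 1.69 Mb, and those of PTPRF, PTPRS, CADM4 and CLSTN1 0.946 Mb or less. Among windows of at least 2.5 Mb, the medians of CADM1 and CLSTN2 were above 0.606% and 1.63%. Those of CNTN1 and PTPRD were above 9.77% and 16.6% of these wide windows, and that of CADM3 above 91.7%. Windows overlap and neighbours share their stretch of chromosome, so these shares are descriptions.

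Some single neighbours changed at least 2-fold. SPSB4, 474 kb after CLSTN2, fell from 1.52 ± 0.114 to 0.149 ± 0.0262 FPKM (log2 -1.64, SE 0.0922, limma adjusted p = 5.48e-05). NNMT, a methyltransferase 856 kb from CADM1, fell from 159 ± 13.5 to 62.0 ± 0.478 FPKM. GLDC, an enzyme of glycine breakdown 1668 kb from PTPRD, fell from 1.06 ± 0.0349 to 0.188 ± 0.0102 FPKM. HYI, 71.2 kb from PTPRF, rose from 13.8 ± 1.38 to 41.8 ± 2.63 FPKM. RBP7 beside CLSTN1, the olfactory receptor gene OR6K2 beside CADM3 and MFAP5 beside CLSTN3 also rose, to 1.69 ± 0.148, 3.39 ± 0.740 and 1.29 ± 0.0537 FPKM.

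**Figure D4:**
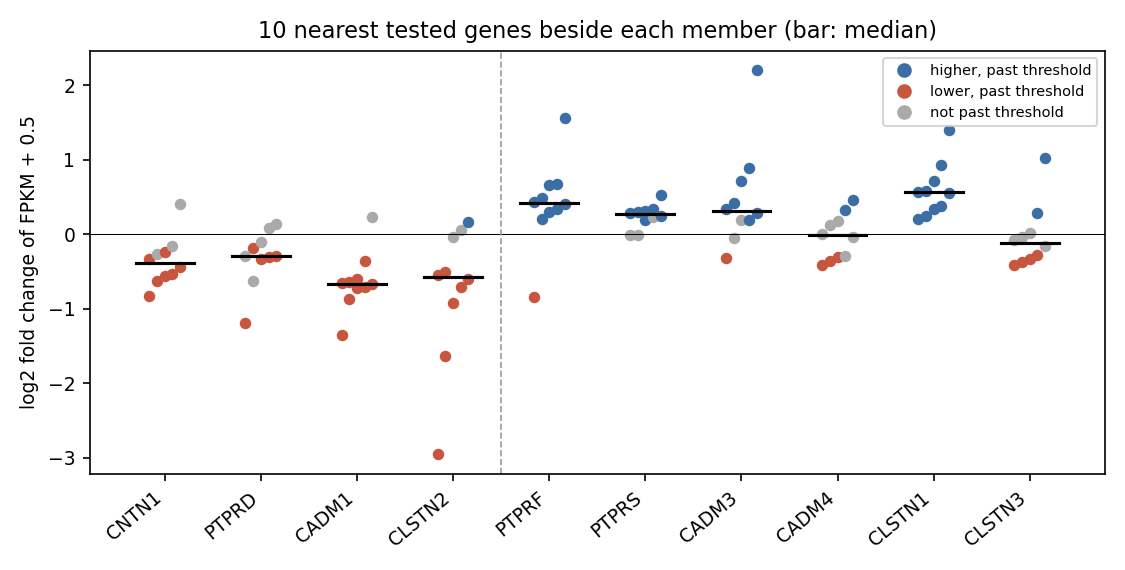
Log2 fold change of FPKM + 0.5 for the 10 nearest tested protein-coding genes beside each of the 10 genes, with the median as a bar and colors for the limma call. Left of the dashed line, beside the members near 0 in shCAVIN1, the 4 medians lie between -0.66 and -0.29. Right of it, 4 of the 6 medians are above 0.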

How the data were processed

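RNA from 3 shCtrl and 3 shCAVIN1 libraries was measured, and the authors deposited 1 table of FPKM values per gene symbol. Per the submitters' processing notes, CASAVA and bcl2fastq 2.17.1.14 were used, as were TopHat and TopHat2 (2.2.5), with build GRCh38. Which program made the FPKM, and with which annotation and strand setting, is not given in the sources used here. Depth is likewise unknown, so no count model or counting interval was used. FPKM falls for all other genes where a few RNAs take much of a library.

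Genes with a mean of at least 0.5 FPKM (13941) were compared by limma 3.58.1 (R 4.3.3) after taking log2(FPKM + 0.5) (group as the only term, variances with a trend, Benjamini-Hochberg adjustment over all tested genes, threshold 0.05), after the fit was tested on simulated data. The log2 scale understates changes of low genes. Errors of FPKM are SD over 3 libraries. Positions come from GENCODE 29, which matched 12881 of the tested rows. The members and the gene lists were chosen with earlier results of these data known. Named were all members, CNTN2 to CNTN6 and CADM2, in each list at most 4 genes past the threshold, by adjusted p (where none passed, at most 2 by level), and neighbours changed at least 2-fold, of which 1 is not reported here. PTPRZ1, EPB41L3, MPP3 and CLSTN2-AS1 fall outside this rule and were chosen after their values were seen. Alternatives were other pseudocounts, filters, scalings and variances, a replicate block, and leaving out each library.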

Additional observations from a re-analysis of the deposited data

How the results depend on the processing

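The 5 members that were lower without overlap stayed so under each scaling and without each single library, and the count was 5 to 6 over the left-out libraries, since CLSTN3 joined them without shCtrl replicate 2. The 3 higher members were 2 under quantile normalization, where PTPRF overlapped. Log2 fold changes of the near-0 members depend on the pseudocount: that of PTPRD was -3.28, -5.46 with 0.1 and -2.42 with 1. Rescaling to TPM moved most counts: 3412 genes changed against 7734 over the whole table, 15 listed genes fell against 26, and 22 rose against 28. Beside the members 20 genes rose against 38 and 17 fell against 37. By group, 0 rose and 16 fell beside the 4 members near 0, against 1 and 28, and 20 rose and 1 fell beside the 6 relatives, against 37 and 9. The cause was not tested. The number of genes beside the 4 that rose, 1 in the main test, was 2 under quantile normalization and 0 to 2 without single libraries. Of the 34 named list genes tested, 25 kept their side of the threshold under all 15 alternatives that could test them. The exceptions were LRFN4, PPFIA1, PPFIBP1, NECTIN3, AFDN, KLC4, FLRT2 and NTNG1, whose calls were lost at least once, and NRXN3, which passed under quantile normalization (log2 0.39, limma adjusted p = 0.0227), with robust variances (0.0395) and without shCtrl replicate 1 (0.0329). Same-numbered libraries deviated together little (r of 0.0936, 0.0714 and -0.0282), with -0.146 to 0.0772 for differently numbered ones. With 3 libraries per group, this does not settle whether the numbers pair them. A fit with a replicate block called 7167 genes, and of the named list genes LRFN4 lost its call (limma adjusted p = 0.0560). No called result changed direction. Values near 0 did change sign: the log2 fold change of CLSTN1, whose groups overlap, was 0.03, and -0.07 without shCtrl replicate 2 and -0.04 without shCAVIN1 replicate 1, and the median over all tested genes went from -0.02 to 0.09 after rescaling to TPM. Of the 100 neighbours 38 rose and 37 fell, and 30 and 36 without shCAVIN1 replicate 1. Depth is unknown, and values under 0.1 FPKM are the least precise.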

Other observations

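Of 63 listed genes below the filter, which were not tested, 21 were lower in shCAVIN1 without overlap, 16 were higher, and 26 overlapped. Among the tested genes, which lie above the filter and so are another kind of set, 33.3% were lower and 31.3% higher without overlap. No such share was taken over all genes below the filter, so nothing is read from these counts. IL1RAPL2, a relative of the PTPRD ligand IL1RAPL1, was at 0.294 ± 0.0447 FPKM in shCAVIN1 and at most 0.0425 FPKM in shCtrl. LRFN5, a ligand of LAR-type phosphatases, was at 0.270 ± 0.00679 against 0.0176 ± 0.00632 FPKM. SLITRK2, of the same ligand family as SLITRK5, was at 0.5002 to 0.834 FPKM in shCtrl and listed at 0 in all 3 shCAVIN1 libraries. The neuroligin NLGN4X was at 0.256 ± 0.0453 FPKM in shCtrl and listed at 0 in 2 of 3 shCAVIN1 libraries. These genes were chosen after their values were seen.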
